A study of Mus musculus with 26 samples.

Results

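Haemoglobin and erythroid genes were followed through 26 libraries of haematopoietic stem cells (HSCs), made by Smart-Seq2 from cells purified by flow cytometry from mouse bone marrow. Smart-Seq2 copies RNA into full-length cDNA from small numbers of cells. The 9 genes are the beta-globin row Beta-s, the alpha-globins Hba-a1 and Hba-a2, Klf1, Alas2, Rhd, Car1, Car2 and Tfrc. They were looked up by symbol among 23416 genes, all 9 were found, and 7 were above 0 in at least 1 library. The genes were chosen by measured values: their levels in the Ezh2 loss libraries had already been seen, so every contrast that holds those libraries is described below without a test.

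The genotypes were control (n = 5), JAK2V617F, a kinase mutation that drives myeloproliferative neoplasms (n = 7), Ezh2 loss, which removes the catalytic subunit of a Polycomb complex that methylates histones (n = 7), and both together (n = 7, here double mutant; the genotype label spells the mutation JAK2V17F). Of strain, age, sex, the promoter or Cre behind each allele and the number of cells per library, none is given in the sources used here. The labels do not tie replicates to separate animals, and a p-value then covers the spread between libraries alone, which may be technical. The Ezh2 row, in RPKM, was at 23.7 ± 10.4 (control), 27.1 ± 8.21 (JAK2V617F), 17.6 ± 9.0 (Ezh2 loss) and 17.4 ± 9.07 (double mutant; mean ± SD), with overlapping ranges, and no exon or allele was looked at.

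RPKM divide the reads of a gene by its length and by the total of its library. The steps between low RPKM values gave back those totals, 7.82 to 29.21 M reads per library, and with them the reads behind each value. Sample titles come in 2 styles, with a number before the group code (number-first, 15 libraries) or after it (number-last, 11 libraries), and what the style stands for is not given in the sources used here. Number-first titles belong to control replicates 1 to 4, JAK2V617F replicates 1 and 3, Ezh2 loss replicates 3 and 4 and all 7 double-mutant replicates. Ezh2 loss and JAK2V617F therefore hold the same number of libraries of each style, 2 number-first and 5 number-last. HSC markers were present throughout: the summed RPKM of 7 of them, among them Kit, Procr and Ly6a, ran from 528 to 1254.

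Haemoglobin is built of alpha- and beta-globin chains, each holding a haem group, and is made in bulk by erythroid precursors after they leave the stem cell pool. Klf1 is an erythroid zinc-finger factor that binds CACCC boxes, the beta-globin promoter among them, and acts beside the GATA factor Gata1. Alas2 is the erythroid form of the first enzyme of haem synthesis, and Tfrc is the transferrin receptor through which erythroblasts take up iron. Rhd is a Rh blood group protein of the red cell membrane, and Car1 and Car2 are carbonic anhydrases, enzymes that interconvert carbon dioxide and bicarbonate.

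The stretches just upstream of 3 of these genes are shown because Beta-s and Alas2 were highest in the same libraries and Klf1 in part. Whether the genes share a regulator was not tested. They are RefSeq sequences on GRCm38.p6, each ending at the base before the outermost transcript start of the gene in GENCODE M21, written 5′ to 3′ along the gene's strand. Capitals mark words found by search on both strands: the GATA-factor word AGATAA, its variant TGATAA, each of these with a last letter G (that is, also AGATAG along with TGATAG), and the CACCC-type word CCNCNCCC.
Beta-s (RefSeq Hbb-bs), chr7:103828097-103828178, minus strand: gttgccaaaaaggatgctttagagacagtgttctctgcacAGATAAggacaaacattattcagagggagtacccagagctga
Beta-s, CCNCNCCC word, chr7:103828006-103828029, minus strand: ccgtagagCCACACCCtggtaagg
Alas2, chrX:150547167-150547374, plus strand: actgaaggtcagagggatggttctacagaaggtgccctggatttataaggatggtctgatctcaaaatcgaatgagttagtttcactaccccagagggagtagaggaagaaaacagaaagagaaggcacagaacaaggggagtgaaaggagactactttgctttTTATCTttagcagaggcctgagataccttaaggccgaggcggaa
Klf1, chr8:84901732-84901927, plus strand: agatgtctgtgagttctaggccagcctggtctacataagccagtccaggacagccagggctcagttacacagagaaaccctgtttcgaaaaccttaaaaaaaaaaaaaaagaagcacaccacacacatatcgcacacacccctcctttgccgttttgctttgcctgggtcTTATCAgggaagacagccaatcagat

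Each of the 3 windows held 1 GATA-factor word, AGATAA in Beta-s, AGATAA on the other strand in Alas2 and TGATAA on the other strand in Klf1. Annotated transcript starts of Hbb-bs include an outer one at 103828096 and an inner one at 103827928, and the window stops before the outer start. The CCNCNCCC word shown with 8 bases on each side lies between them, inside the gene as annotated, with 85 bases between the word and the inner start, which is the RefSeq start. Over 27025 RefSeq genes, any of the GATA-factor words occurred in 11.3% of windows of 82 bases, 23.3% of 196 and 24.2% of 208. These windows were the first 82, 196 or 208 of the 250 bases before a RefSeq start, as for the 3 genes, and leave out the bases nearest that start. CCNCNCCC occurred in 45.6% of windows of the 250 bases before a RefSeq start. These words are common, and a match is a description of the letters in a window.

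Beta-s, named Hbb-bs in current annotation (chr7:103826534-103828096, minus strand, GRCm38), was high in 4 of the 7 Ezh2 loss libraries and near the level of the other genotypes in the rest of that group. In Ezh2 loss replicates 1 to 7 it stood at 877, 3394, 18.5, 37.5, 1607, 5786 and 29.7 RPKM, from 4899, 24441, 168, 597, 8035, 67206 and 247 reads. Replicates 1, 2, 5 and 6, all number-last, were high, while number-first replicates 3 and 4 and number-last replicate 7 were not far from the other groups. Control libraries held 16.5, 14.9, 2.16, 16.8 and 10.8 RPKM. JAK2V617F libraries held 3.12, 6.70, 26.5, 3.83, 2.42, 4.21 and 0 RPKM, and the library at 0 reads allows up to 0.556 RPKM (3 reads). Double-mutant libraries held 6.44, 4.37, 37.5, 4.32, 4.89, 15.3 and 12.3 RPKM.

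Every Ezh2 loss library (7 of 7) exceeded the highest control value, 16.8 RPKM, as did 1 of 7 JAK2V617F and 1 of 7 double-mutant libraries. Over all tested genes, 22 of 12116 (0.182%) had every Ezh2 loss library above the highest control, a share printed for scale only, since this contrast chose the genes. Set against the highest of the 19 other libraries, which was double-mutant replicate 3 at 37.46 RPKM, 5 Ezh2 loss libraries were above and replicate 4, at 37.49, cleared it by the last digits. The 2 Ezh2 loss libraries below that line were replicates 3 and 7. In replicate 6 Beta-s was the 4th most abundant gene and took 0.370% of all reads (95% exact binomial interval 0.367% to 0.372%). In replicate 2 it was the 6th and took 0.217% (0.214% to 0.220%), in replicate 5 the 19th and 0.103% (0.101% to 0.105%), and in replicate 1 the 72nd and 0.0561% (0.0545% to 0.0576%). Such intervals cover counting error only, since reads without molecular identifiers are not independent molecules. In bulk libraries a change in the number of cells of a type and a change in RNA per cell cannot be told apart.

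**Figure D1:**
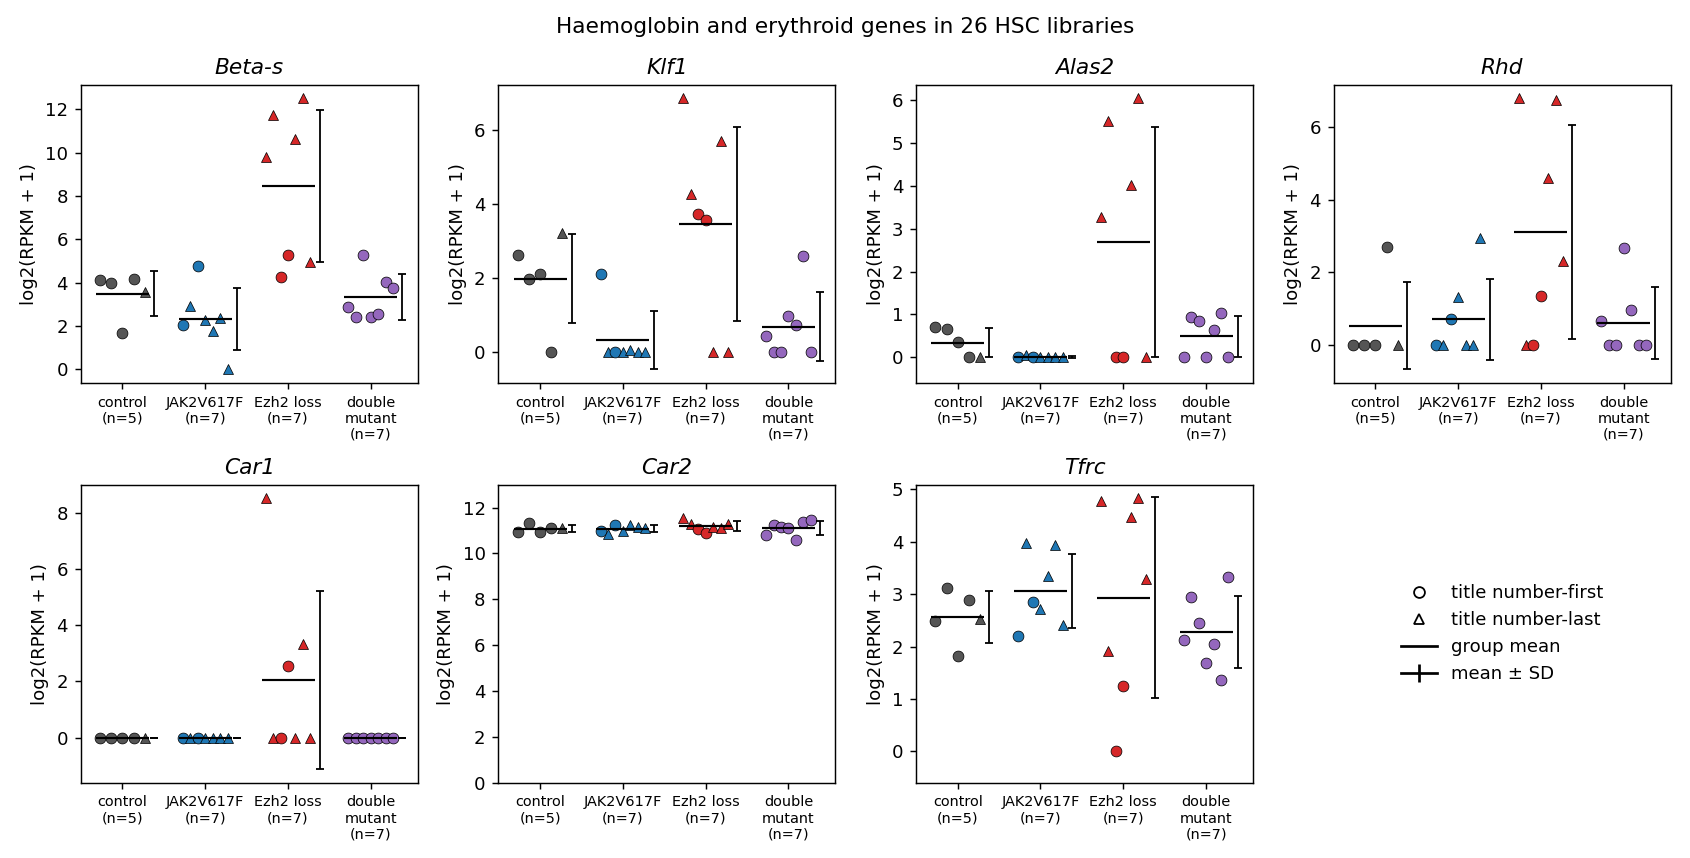
Level of 7 genes in each of 26 libraries, as log2(RPKM + 1), by genotype; circles are number-first and triangles number-last titles, the line is the group mean and the bar beside it the mean ± SD. Beta-s runs from 18.5 to 5786 RPKM in Ezh2 loss with the 4 highest all number-last, while Car2 lies in a narrow band from 1532 to 3017 RPKM in all genotypes.

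The alpha-globin rows Hba-a1 (chr11:32283511-32284465) and Hba-a2 (chr11:32296489-32297298) were listed at 0 in all 26 libraries, the library with 67206 Beta-s reads included. The 2 genes are near copies: over 426 coding bases of GENCODE M21 they differed at 1, C381T counted from the first base of the start codon, and 439 of 650 windows of 50 bases in the Hba-a1 transcript (67.5%) also occur in Hba-a2. The last 76 coding bases before the stop codon are shown to make this plain, with the differing base in capitals.
Hba-a1: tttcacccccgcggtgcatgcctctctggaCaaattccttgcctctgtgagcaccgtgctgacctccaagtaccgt
Hba-a2: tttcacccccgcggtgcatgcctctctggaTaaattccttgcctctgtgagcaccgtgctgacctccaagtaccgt
The remaining windows of Hba-a1 do not occur in Hba-a2. How reads that match both copies were counted is not given in the sources used here. The zeros of Hba-a1 and Hba-a2 are listed values whose cause was not tested. They are not read here as a level of alpha-globin RNA.

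Beta-globin has such a pair too. Hbb-bs and Hbb-bt differed at 1 of 441 coding bases (C417T), and 381 of 579 windows of the Hbb-bs transcript (65.8%) occur in Hbb-bt, which was not analysed here. The level of Beta-s is therefore uncertain as a level of 1 gene. Of the other globin rows, Hbq1b, a theta-globin, was at 21.9, 6.52 and 47.8 RPKM in Ezh2 loss replicates 1, 2 and 6, at 0.58 in double-mutant replicate 5 and at 0 in the other 22 libraries. Hbq1b was thus listed at 0 in Ezh2 loss replicate 5, whose Beta-s was 1607 RPKM. Hbb-b1 never exceeded 1.22 RPKM, embryonic Hbb-y was seen at 0.18 RPKM in Ezh2 loss replicate 1 alone, Hbq1a was at 1.49 in control replicate 5 alone, and Hbb-b2, Hbb-bh1, Hbb-bh2 and Hba-x were listed at 0 throughout.

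Klf1 (chr8:84901928-84905291, plus strand) came with beta-globin in some Ezh2 loss libraries but not in others. It stood at 115, 18.2, 12.4, 10.9, 0, 51.7 and 0 RPKM in Ezh2 loss replicates 1 to 7, from 1545, 315, 270, 416, 0, 1443 and 0 reads. Replicate 5 had 8035 Beta-s reads and none of Klf1, where a count of 0 allows up to 0.25 RPKM. Such limits on zeros, here and for the other genes, cover counting error at the depth of the library only. Replicates 3 and 4, whose Beta-s was close to that of other genotypes, still had more Klf1 than any library of those genotypes. Klf1 was at 5.10, 2.89, 3.31, 0 and 8.24 RPKM in control, at 3.26, 0, 0, 0, 0.040, 0 and 0 in JAK2V617F and at 0.34, 0, 0, 0.97, 0.65, 5.09 and 0 in double-mutant libraries. Controls thus carried Klf1 in 4 of 5 libraries, JAK2V617F in 2 of 7 and the double mutant in 4 of 7.

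Alas2 (chrX:150547375-150570638, plus strand) marked the 4 libraries with the highest Beta-s. It was at 8.62, 45.0, 0, 0, 15.3, 65.4 and 0 RPKM in Ezh2 loss replicates 1 to 7, from 149, 1004, 0, 0, 237, 2353 and 0 reads. The 4 libraries above 0 were those with the highest Beta-s, in the same order of level. Alas2 was at 0.63, 0.57, 0.27, 0 and 0 RPKM in control and at 0, 0.92, 0.81, 0, 0.55, 1.04 and 0 in double-mutant libraries. In JAK2V617F it was at 0 in 6 libraries and at 0.036 RPKM, 1 read, in replicate 2. Below the 4 high libraries Alas2 and Beta-s did not share an order: JAK2V617F replicate 3 and Ezh2 loss replicates 3, 4 and 7, with 18.5 to 37.5 RPKM of Beta-s, had no Alas2 read, while double-mutant replicate 2, with 4.37 RPKM of Beta-s, had 0.92 of Alas2. Alas2 met the threshold of the test, 5 or more libraries at 1 RPKM or above, only through those 4 Ezh2 loss libraries and double-mutant replicate 6.

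Rhd (chr4:134864536-134896172, plus strand) was at 109, 0, 0, 1.54, 23.2, 107 and 4.01 RPKM in Ezh2 loss replicates 1 to 7. Replicates 1, 5 and 6 were high, and replicate 2, the second in Beta-s, held no Rhd read, allowing up to 0.176 RPKM. Elsewhere Rhd was sporadic: it was above 0 in 7 of the 19 other libraries, led by JAK2V617F replicate 7 at 6.72, control replicate 4 at 5.47 and double-mutant replicate 4 at 5.40 RPKM. JAK2V617F replicate 7 was also the library without a Beta-s read.

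Car1 (chr3:14766216-14808368, minus strand) was above 0 only in Ezh2 loss replicates 1, 4 and 6, at 367, 4.79 and 9.17 RPKM (4006, 149 and 208 reads). The other 23 libraries held no read, with limits between 0.0823 and 0.307 RPKM, and Car1 failed the low-value threshold of the test. Car1 and Beta-s did not share an order: replicate 1 led Car1 with 877 RPKM of Beta-s, and replicates 2 and 5 had no Car1. Car2 (chr3:14886273-14900770, plus strand), which HSCs express, was at 2169 ± 237 RPKM in control and 2176 ± 221 in JAK2V617F libraries, against 2372 ± 359 with Ezh2 loss and 2241 ± 446 with both (mean ± SD). Only Ezh2 loss replicate 1, at 3017 RPKM, exceeded the highest Car2 value of the 19 other libraries, 2827.

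Tfrc (chr16:32608920-32632794, plus strand) was at 26.5, 2.78, 0, 1.38, 21.1, 27.6 and 8.76 RPKM in Ezh2 loss replicates 1 to 7. Replicates 1, 5 and 6 were above the highest of the 19 others, JAK2V617F replicate 2 at 14.7 RPKM, while replicate 2 was within the control range and replicates 3 and 4 were below every control. Tfrc was at 4.58, 7.66, 2.52, 6.38 and 4.78 RPKM in control. It ran from 3.58 to 14.7 RPKM with a median of 6.21 in JAK2V617F and from 1.55 to 9.10 with a median of 3.34 in the double mutant.

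Read by library, Ezh2 loss replicate 1 exceeded the highest of the 19 others in 7 of the 9 genes and replicate 6 in 6. Replicate 5 did so for Beta-s, Alas2, Rhd and Tfrc, and replicate 2 for Beta-s, Klf1 and Alas2. Replicate 4 did so for Beta-s, Klf1 and Car1, replicate 3 for Klf1 alone and replicate 7 for none. Between 2.96% (replicate 4) and 5.65% (replicate 3) of all genes exceeded that line in an Ezh2 loss library. These shares are for scale only, since levels in these libraries chose the 9 genes. Of the 7 Ezh2 loss libraries, all with Beta-s above the highest control, 5 also had Klf1 above its highest control, 4 had Alas2, 4 Tfrc, 3 Rhd, 3 Car1 and 1 Car2. The count for Rhd would be 5 without control replicate 4, and that for Car2 would be 5 without control replicate 2. No share over all genes was computed for such counts above the highest control, so how unusual they are was not tested. In JAK2V617F and the double mutant the single library with raised Beta-s, replicate 3 of each, had Klf1 at 0 RPKM. Double-mutant replicate 3 had Alas2 at 0.81 RPKM, above the highest control (0.63), and JAK2V617F replicate 3 had none.

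**Figure D2:**
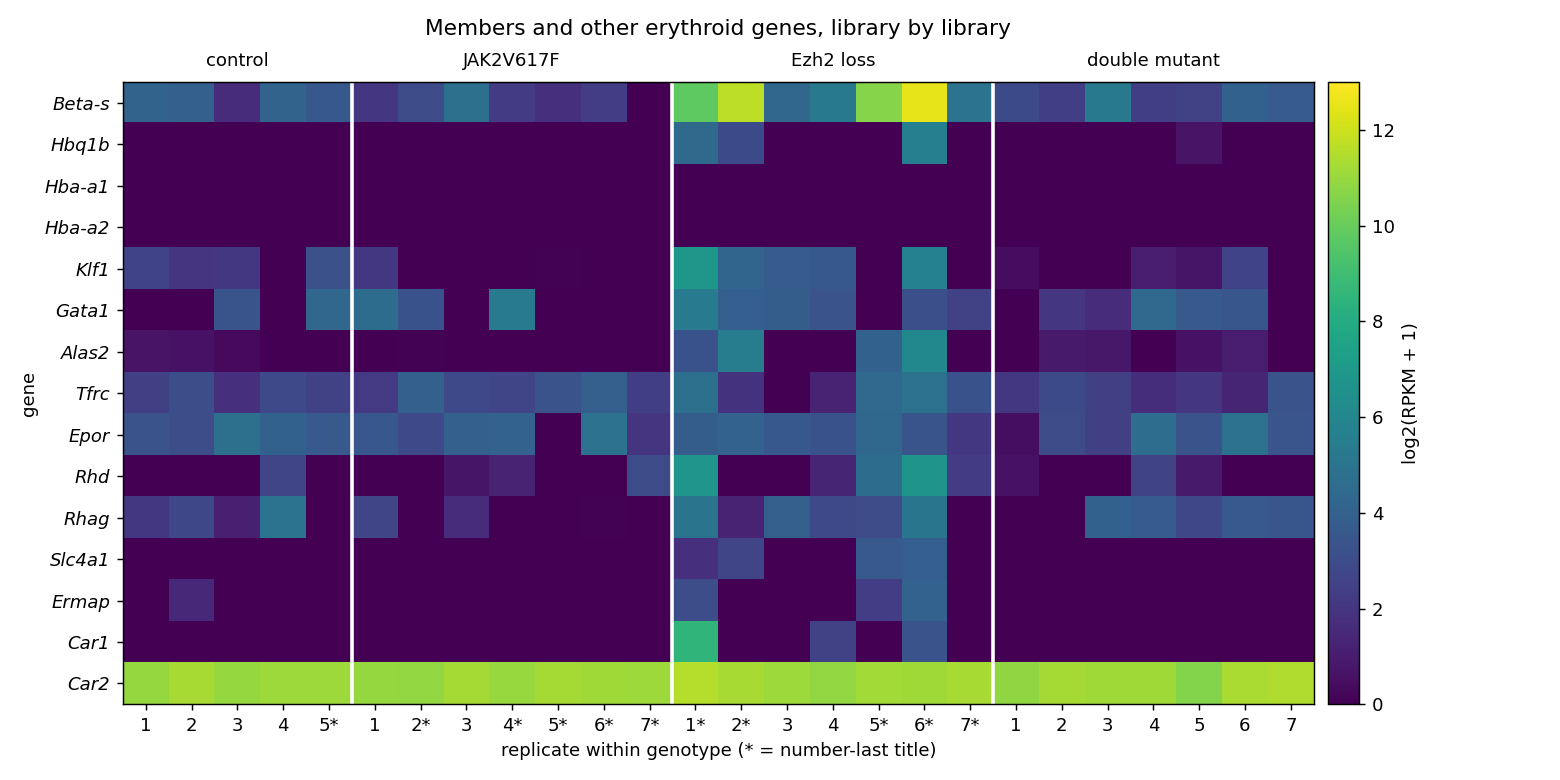
Levels of the 9 genes and 6 other erythroid genes, as log2(RPKM + 1), in each library; columns are replicates within genotype, with an asterisk for number-last titles. Ezh2 loss replicates 1, 2, 5 and 6 are lit in Beta-s, Alas2 and Slc4a1, replicate 5 lacks Klf1, and the alpha-globin rows are at 0 everywhere. Slc4a1 was picked after its values were seen, and Gata1 and Epor do not exceed the highest of the other genotypes in those replicates.

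Within title styles the picture differed. The 5 number-last Ezh2 loss libraries had a mean Beta-s of 2339 ± 2291 RPKM against 3.43 ± 2.46 in the 5 number-last JAK2V617F libraries (mean ± SD). The 2 number-first Ezh2 loss libraries had a mean of 28.0 RPKM, against 14.8 in the 2 number-first JAK2V617F libraries and 12.6 ± 7.01 in the 4 number-first controls. Number-first Ezh2 loss libraries had no Alas2 read and a mean Tfrc of 0.69 RPKM, against 5.29 ± 2.23 in number-first controls. Klf1 was the exception, at a mean of 11.6 RPKM in the 2 number-first Ezh2 loss libraries and 2.83 ± 2.11 in the 4 number-first controls. The single number-last control had Beta-s at 10.8 RPKM and Klf1 at 8.24.

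Fold changes were taken from limma on log2(RPKM + 1), fitted to 12116 genes in all 26 libraries, which compresses low values. Beta-s was 4.95 higher in log2 in Ezh2 loss than in control (SE 1.15), Rhd 2.58 (SE 0.96), Alas2 2.35 (SE 0.77), Klf1 1.47 (SE 0.87), Tfrc 0.37 (SE 0.65) and Car2 0.12 (SE 0.13). In number-first libraries alone the same difference was 1.29 for Beta-s (SE 0.90), 1.99 for Klf1 (SE 0.86), 0.00 for Rhd (SE 0.84), -0.43 for Alas2 (SE 0.49) and -1.95 for Tfrc (SE 0.68). So the Klf1 difference was as large within that style, that of Beta-s was smaller, and those of Alas2 and Tfrc lay on the other side of 0.

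Against JAK2V617F, where the styles are balanced, Ezh2 loss was higher by 6.14 for Beta-s (SE 1.05), 3.14 for Klf1 (SE 0.79), 2.69 for Alas2 (SE 0.71) and 2.4 for Rhd (SE 0.88), with -0.13 for Tfrc (SE 0.60) and 0.12 for Car2 (SE 0.12). In the double mutant against Ezh2 loss, Beta-s was at -5.12 (SE 1.05), Klf1 at -2.78 (SE 0.79), Rhd at -2.50 (SE 0.88), Alas2 at -2.20 (SE 0.71), Tfrc at -0.66 (SE 0.60) and Car2 at -0.09 (SE 0.12). These contrasts share the 7 Ezh2 loss libraries, and the last sets 7 number-first libraries against 2, so that style and genotype cannot be told apart there except in number-first libraries. In those, the double mutant against Ezh2 loss had Beta-s at -1.44 (SE 0.83), Klf1 at -2.98 (SE 0.79) and Rhd at -0.06 (SE 0.78), with Alas2 at 0.49 (SE 0.46), Tfrc at 1.65 (SE 0.63) and Car2 at 0.13 (SE 0.19) on the other side of 0. With title style as a covariate over all libraries Tfrc also changed sign, to 0.45 (SE 0.64) in this contrast and to -0.43 (SE 0.63) in Ezh2 loss against control.

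The 3 contrasts without the Ezh2 loss group were tested, and 0 of the 6 genes that passed the low-value threshold changed in any of them (limma, two-sided, Benjamini-Hochberg over 12116 genes). None of the 6 had an unadjusted p under 0.05 either. Alas2 reached 1 RPKM in 1 of the 19 libraries of these contrasts and Rhd in 4, so both met the low-value threshold only because Ezh2 loss libraries counted towards it, and for them the absence of a call says little. For scale, 1 gene of 12116 (0.00825%) passed in JAK2V617F against control, 0 (0%) in the double mutant against control and 274 (2.26%) in the double mutant against JAK2V617F, with 961, 603 and 2169 genes at an unadjusted p under 0.05. The double mutant against JAK2V617F sets 7 number-first libraries against 2 number-first and 5 number-last, so its calls mix title style with genotype. In JAK2V617F against control, Beta-s was at -1.19 in log2 (SE 1.15, adjusted p = 0.805) and Klf1 at -1.67 (SE 0.87, adjusted p = 0.622).

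In the double mutant against control, Beta-s was at -0.17 (SE 1.15, adjusted p = 0.994) and Klf1 at -1.30 (SE 0.87, adjusted p = 0.977). Mean Beta-s was 12.2 ± 11.95 RPKM in the double mutant and 12.2 ± 6.13 in control, and with an SE of 1.15 a difference of 1 log2 unit either way would not have been detectable. In the double mutant against JAK2V617F, Beta-s was at 1.02 (SE 1.05, adjusted p = 0.66) and Tfrc at -0.79 (SE 0.60, adjusted p = 0.519). The Beta-s difference in that contrast was -0.08 (SE 0.83) when only number-first titles were used.

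**Figure D3:**
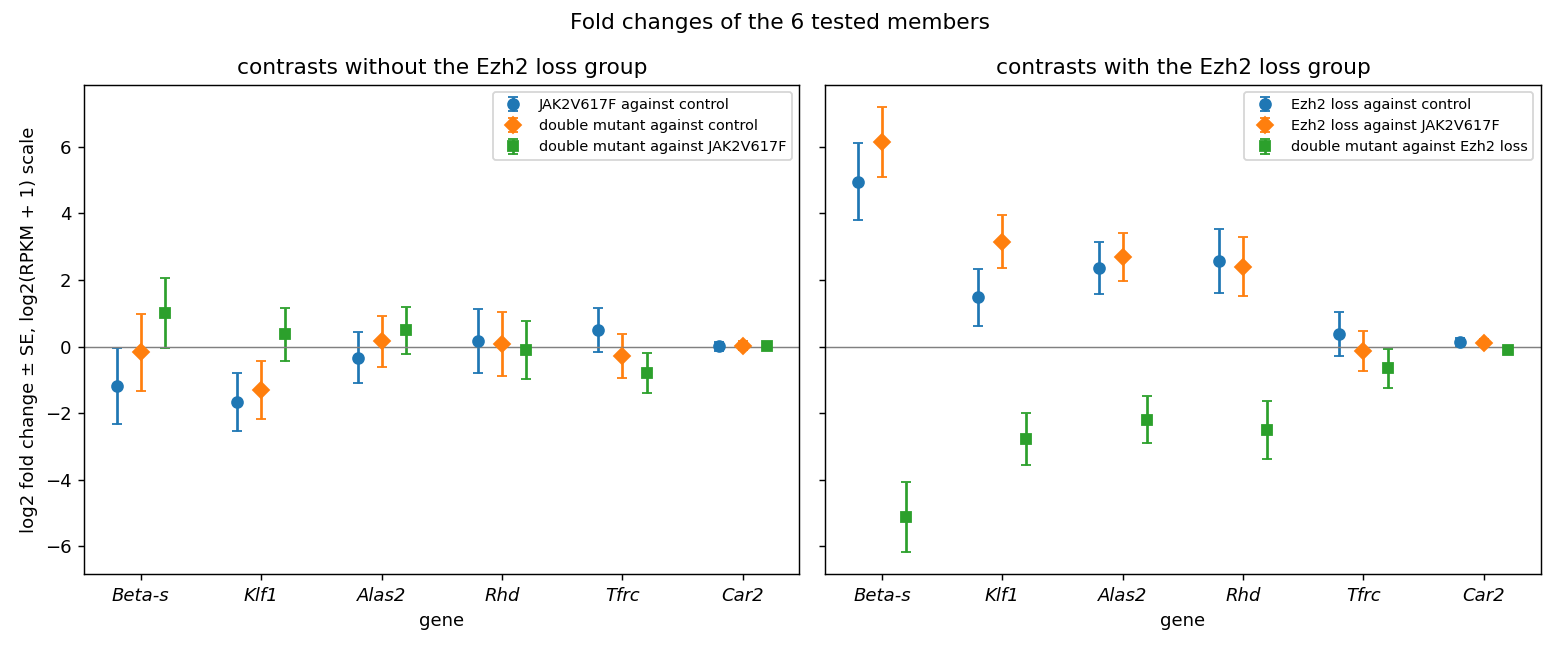
Log2 fold changes ± SE of the 6 genes that passed the low-value threshold, on the log2(RPKM + 1) scale, in the 3 tested contrasts (left) and the 3 described contrasts with Ezh2 loss (right). Beta-s reaches 6.14 in Ezh2 loss against JAK2V617F, and Car2 lies between -0.09 and 0.12 in all 6 contrasts.

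Other erythroid genes were taken from lists, which also hold some of the genes described above. Of 20 red cell membrane and blood group genes, 14 were above the highest of the 19 other libraries in Ezh2 loss replicate 6, 12 in replicate 1, 7 in replicate 5, 4 in replicate 2, 2 each in replicates 3 and 4, and 1 in replicate 7. Rhd is among the genes counted in replicates 1, 5 and 6. It was chosen with its levels in these libraries known, so those counts are not separate from the values above. Over all 23416 genes, between 2.96% and 5.65% were above the highest of the 19 other libraries in a given Ezh2 loss library. Slc4a1, the band 3 anion exchanger, was at 2.44, 5.68, 11.6 and 13.8 RPKM in Ezh2 loss replicates 1, 2, 5 and 6 and at 0 in the other 22 libraries. Slc4a1, a listed erythroid marker picked after its values were seen, was thus above 0 in the same Ezh2 loss libraries as Alas2. Other markers of that list differed. Ermap was above the highest of the 19 other libraries in replicates 1, 5 and 6, Rhag in replicates 1 and 6, and Gata1 and Epor in no Ezh2 loss library.

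Haem synthesis genes beyond Alas2 stood out mainly in Ezh2 loss replicates 1 and 6. Of 15 listed genes, 9 were above the highest of the 19 others in Ezh2 loss replicate 6, 5 in replicate 1, 3 in replicate 2, 1 each in replicates 3, 4, 5 and 7. These counts include Alas2 in replicates 1, 2, 5 and 6, and in replicate 5 it was the only gene counted. Urod, which decarboxylates uroporphyrinogen, was at 278 RPKM in replicate 6 against 78.6 to 209 RPKM in every other library. Tmem14c, which serves porphyrin import into mitochondria, was at 202 and 241 RPKM in replicates 1 and 6 and at 53.4 RPKM in replicate 5. The median log2 fold change of the 14 tested haem genes, Alas2 among them, was -0.01 in Ezh2 loss against control. Over all genes tested it was -0.12, so the middle of this list lay near the general level.

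Erythroid transcription factors showed the same mixture. Gata1, the master GATA factor of red cells and megakaryocytes, was at 40.7, 13.7, 13.5, 8.99, 0, 7.87 and 4.89 RPKM in Ezh2 loss replicates 1 to 7, within the 0 to 41.5 RPKM seen in the other genotypes. Replicate 5 lacked Gata1 as it lacked Klf1. Lmo2, Nfe2 and Gfi1b, all active in stem and progenitor cells as well, were the most abundant of the list, at means of 725, 479 and 157 RPKM over the 26 libraries. Of the 15 genes, all tested, 0 passed in JAK2V617F against control, 0 in the double mutant against control and 2 rose in the double mutant against JAK2V617F. These were Gfi1b, a transcriptional repressor needed in the erythroid and megakaryocyte lineages (186 against 109 RPKM, log2 0.80, SE 0.19, limma adjusted p = 0.0241), and Lyl1, a basic helix-loop-helix factor of stem and progenitor cells (209 against 86.5 RPKM, log2 1.24, SE 0.27, limma adjusted p = 0.0187).

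In number-first JAK2V617F libraries the mean of Gfi1b was 151 RPKM and that of Lyl1 115, nearer to the double mutant than the mean over both styles. In number-last JAK2V617F libraries the means were 92.5 and 75.2 RPKM. All double-mutant libraries are number-first, so title style and genotype cannot be told apart in these 2 calls. No gene of the globin, haem synthesis, iron, red cell membrane, carbonic anhydrase or erythropoietin receptor and stage lists passed in the 3 tested contrasts, where 1, 14, 15, 12, 5 and 16 of their genes were tested. Among the iron genes the ferritin chains Ftl1 and Fth1 were the most abundant, at 3348 ± 786 and 1798 ± 277 RPKM over the 26 libraries (mean ± SD), and in the erythropoietin receptor and stage list the peroxiredoxin Prdx2 led at 566 ± 186 RPKM.

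The genes most like Beta-s over the 26 libraries, by Pearson r of log2(RPKM + 1) among tested genes outside the 9, included Cdr2 (r = 0.803, Spearman rho 0.528), Zxda (0.701, rho 0.369) and the scavenger receptor Cd36 (0.694, rho 0.566). Among the 9, Alas2 was at r = 0.911 with Beta-s (rho 0.498), higher in r than any other tested gene, Klf1 at 0.597, Rhd at 0.593, Tfrc at 0.397 and Car2 at 0.358. Beta-s and Alas2 were chosen with their Ezh2 loss levels known. Alas2 reached 1 RPKM in 1 of the 19 other libraries, so it passed the low-value threshold mainly through Ezh2 loss libraries. Cdr2 passed through Ezh2 loss libraries and double-mutant replicate 5. The choice and the threshold thus favour a high r, and these ranks are no separate support. The r values rest on the few libraries with high Beta-s, and the 5 genes highest by rank correlation were others, Tns3, Retnlg, Pilrb2, S100a9 and Arhgdib. The genes most like Klf1 were Trim2 (r = 0.764, rho 0.462), Atp5k (0.633, rho 0.662), Cdr2 (0.619, rho 0.421), Cklf (0.616, rho 0.551) and the red cell adhesion molecule Icam4 (0.612, rho 0.476). Libraries share depth and genotype, so these are descriptions.

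RNA of other blood cells varied between libraries too. The summed RPKM of 8 neutrophil markers ran from 39.5 to 388 in control and from 72.9 to 17660 in JAK2V617F libraries, and from 404 to 38180 with Ezh2 loss and 43.2 to 52100 with both, and Retnlg and Lcn2 were at 0 in every control. Beta-s and neutrophil RNA did not go together in each library. Ezh2 loss replicate 5, with Beta-s at 1607 RPKM, had the lowest neutrophil sum of its group (404), with the antimicrobial genes S100a8 at 271, Camp at 27.7, Ngp at 8.26 and Ltf at 0 RPKM. Ezh2 loss replicate 7 and double-mutant replicate 4 had neutrophil sums of 26810 and 52100 with Beta-s at 29.7 and 4.32 RPKM.

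Double-mutant replicate 3 and JAK2V617F replicate 3, the libraries with the highest Beta-s of their groups, had neutrophil sums of 26700 and 17660. Of the erythroid markers outside the 9 genes, 5 (Gata1, Epor, Slc4a1, Rhag and Ermap) summed to 12.6 to 45.0 RPKM in control, 0.054 to 57.4 in JAK2V617F, 8.21 to 95.4 in Ezh2 loss and 0.38 to 57.5 in the double mutant, with Slc4a1 at 0 in every control and every JAK2V617F library. Their sum was 95.4, 36.7, 41.9 and 78.9 RPKM in Ezh2 loss replicates 1, 2, 5 and 6, so that only replicates 1 and 6 were above the highest of the other genotypes. The mast cell and basophil sum was 120 RPKM in Ezh2 loss replicate 2, where all 3 markers were above 0. It was 27.1 in replicate 1 and 20.4 in replicate 6, in both from Cpa3 alone, with the other markers at 0. In replicate 5, also high in Beta-s, the sum was 0. Other genotypes reached at most 13.2. A pair of B cell markers summed to 17.8 RPKM in Ezh2 loss replicate 2 and 2.20 in replicate 7, and to 0 in every control and JAK2V617F library, with 50.5 in double-mutant replicate 7, where Beta-s was 12.3 RPKM. The megakaryocyte sum was highest in Ezh2 loss replicates 7 and 2, at 712 and 615 RPKM, against at most 477.5 in the other genotypes. The T and NK cell sum reached 618 RPKM in Ezh2 loss replicate 4, against at most 241 in the other genotypes. In that library 1 of the 4 T and NK cell markers, Nkg7, was above 0 and gave the whole sum. The macrophage sum was 89.0 in replicate 4 against 164. The part of other cells in the globin values was not tested.

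**Figure D4:**
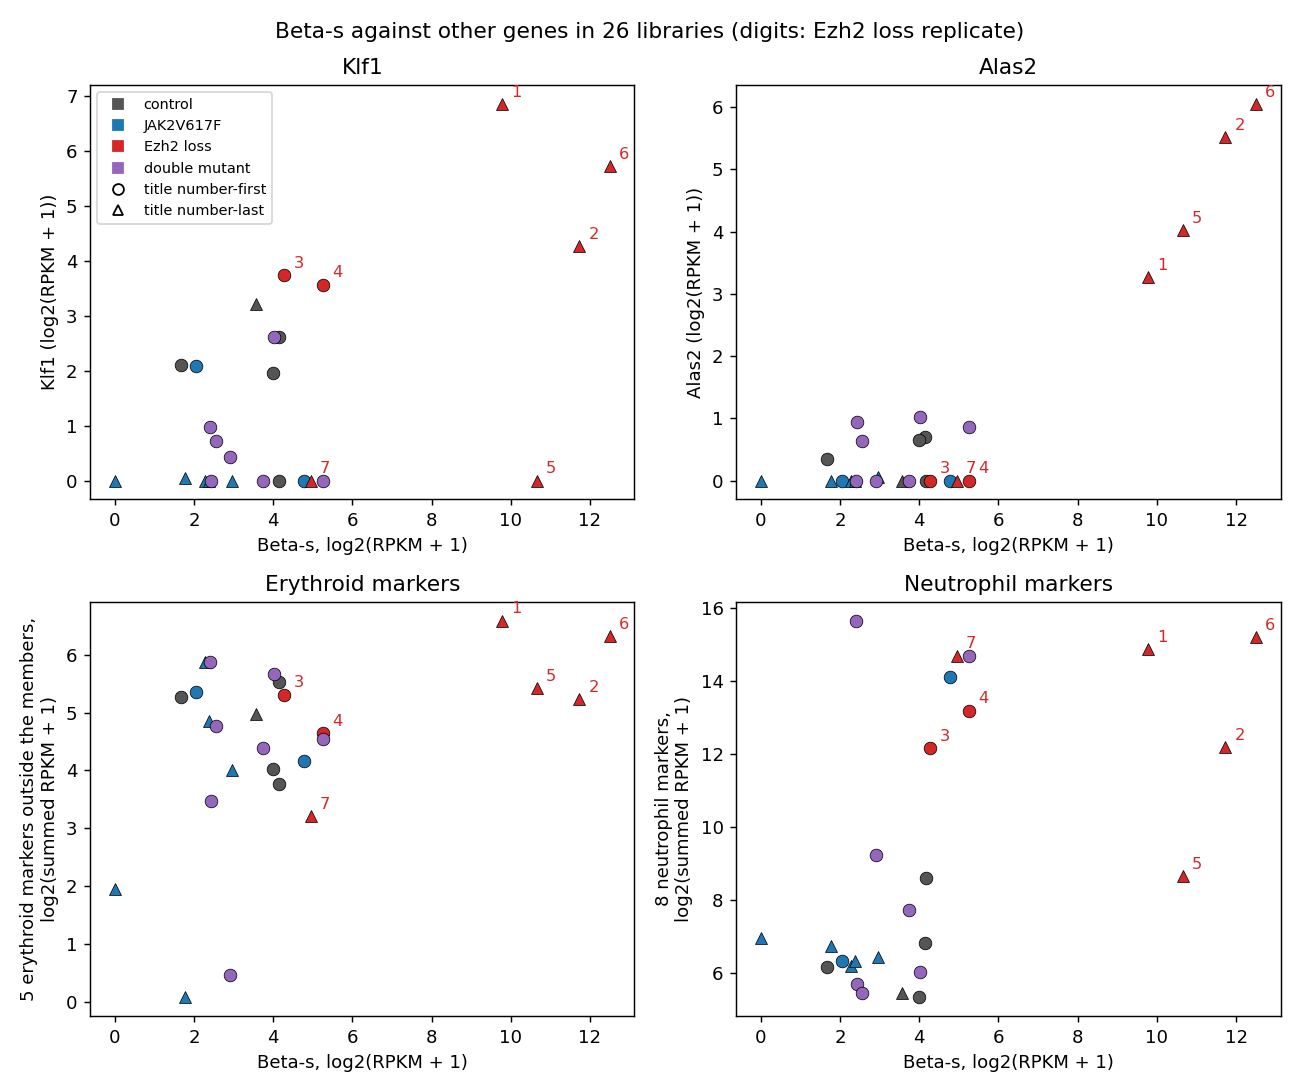
Beta-s on the horizontal axis against Klf1, Alas2, 5 summed erythroid markers and 8 summed neutrophil markers, all as log2(value + 1) of RPKM, 1 point per library; digits give the Ezh2 loss replicate. The 4 libraries with Beta-s at 877 RPKM or more are also the 4 highest in Alas2, replicate 5 sits at 0 for Klf1 and low for neutrophil markers, and replicate 7 is high for neutrophil markers with little Beta-s.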

How the data were processed

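The deposited table holds 1 RPKM value, computed by the authors, per gene and library (23416 genes, 26 libraries), and all columns were used. The submitters' processing notes name Subread 1.5.0, STAR 2.4.2a and SAMtools 0.1.19 and the builds mm10 and GRCm38. Neither annotation nor settings were given in the sources used here. Read totals and reads per gene were recovered from the steps between RPKM values and served for description only: 312 of 325 library pairs gave 1 coherent ratio, and all 124 listed genes above 0 in at least 3 libraries gave whole reads within a tolerance of 0.01. Genes at 1 RPKM or more in 5 or more libraries entered a limma fit (version 3.58.1, R 4.3.3) of log2(RPKM + 1) with 1 mean per genotype and trended, robust moderation, checked on simulated data. The members and lists were chosen with earlier results of these data known. Listed genes were named when called or among the 3 most abundant of their list, plus all globins, 5 neutrophil markers, and the 5 genes most like Beta-s and Klf1; results of several such genes are not reported here, and marker sums leave them out. Slc4a1 and single libraries were picked after their values were seen. Coordinates are GRCm38 (GENCODE M21).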

Additional observations from a re-analysis of the deposited data

Results flagged for a closer look

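In 25 combinations of gene and genotype with any spread, 9 had 1 library far from the others by Dixon's test. Chance flags about 1 in 20 groups of normally spread values, a rate that does not apply to sparse values such as these: in 2 of the 9 all other libraries were at 0, where any value above 0 stands out by construction. Beta-s stood out in JAK2V617F replicate 3 (26.48 RPKM, next 6.70) and double-mutant replicate 3 (37.46, next 15.3). Klf1 stood out in JAK2V617F replicate 1 (3.263 RPKM, next 0.040) and double-mutant replicate 6 (5.089, next 0.97). Rhd stood out in control replicate 4 (5.47 RPKM, next 0), JAK2V617F replicate 7 (6.723, next 1.495) and double-mutant replicate 4 (5.399, next 0.95). Alas2 in JAK2V617F replicate 2 was at 0.03607 RPKM, 1 read, with the other libraries at 0. Car1 in Ezh2 loss replicate 1 was at 367.3 RPKM, with the next at 9.17.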

How the results depend on the processing

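No gene of the 6 tested was called in any of the 3 tested contrasts under any of 36 other settings each (pseudocount 0.1 or 5, no low-value filter, 3 other scalings, rescaling without globins, title style as a covariate, number-first libraries only, only the 2 groups compared, and leaving out each of the 26 libraries). The Beta-s difference between Ezh2 loss and control fell from 4.95 to 1.2897 in number-first libraries, and the count of Ezh2 loss libraries above the highest control went from 7 to 2 there, since only 2 are number-first. In the 3 tested contrasts, directions of differences that were not called reversed as follows, in log2; the cause was not tested. For JAK2V617F against control, Car2 was at -0.2551 (quantile scaling) and -0.0562 (style covariate), Rhd at -0.534 (style covariate) and -0.308 (number-first), and Tfrc at -0.3009 and -0.0514. For the double mutant against control, Rhd was at -0.0042 (pseudocount 5), -0.0428 (quantile) and -0.0601 (number-first), Beta-s at 0.116 and Tfrc at 0.0192 (style covariate). For the double mutant against JAK2V617F, Car2 was at -0.0371 (median ratio scaling), Rhd at 0.8846 (style covariate) and 0.2479 (number-first), Tfrc at 0.3201 (style covariate), and Beta-s at -0.0805 and Klf1 at -0.3707 (number-first). Leaving out 1 library gave ranges across 0 for Car2, from -0.032 to 0.0639 in JAK2V617F against control, -0.0335 to 0.1137 in the double mutant against control and -0.0383 to 0.1089 in the double mutant against JAK2V617F, and for Rhd, from -0.1971 to 0.7142, -0.2695 to 0.6134 and -0.4449 to 0.2717. Among the contrasts with Ezh2 loss, beside the reversals given in the report, Tfrc was at -0.05 against control with a pseudocount of 0.1 and at 0.12 against JAK2V617F with 5, Car2 was at -0.18 against control and 0.26 in the double mutant against Ezh2 loss by quantile scaling, and in number-first libraries Car2 was at -0.10 against control and -0.13 against JAK2V617F, and Alas2 at 0.00 against JAK2V617F. Leaving out JAK2V617F replicate 2 or 6 or Ezh2 loss replicate 2, 3 or 4 also brought Tfrc against JAK2V617F above 0, up to 0.36. Number-last libraries of Ezh2 loss and JAK2V617F share 4 title numbers, but same-numbered libraries did not deviate together (correlations -0.085 to 0.028), and a replicate block over those numbers gave, in log2, 7.13 for Beta-s, 4.79 for Rhd, 3.32 for Alas2, 3.13 for Klf1, 0.22 for Car2 and, against -0.13 without the block, 0.85 for Tfrc (SE 1.77, 1.16, 1.27, 1.82, 0.10 and 0.54; added after the data were seen). Depth limits the zeros, which by counting error alone allow up to 0.307 RPKM in Klf1, Alas2, Rhd, Car1 and Tfrc. No limit was computed for Hba-a1 and Hba-a2.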
